A study of Mus musculus with 16 samples.

Results

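The response of B16F10 tumors to etoposide (ETS) that was common to lean and obese hosts is described here, as the genes whose average change after ETS over both hosts passed the test and whose changes within each host had the same sign. Of 45777 genes listed in the count table, 16209 had no zero count in any of the 16 tumors and were tested, 7381 of these were called in an additive model of host plus treatment, and 7297 of the calls, 45% of the tested genes, changed in one direction in both hosts. The rule uses the average over hosts and the sign in each host, so the size of the change in each host, the difference between hosts and the separation of single tumors are given as further descriptions of the members. B16F10 is a pigmented mouse melanoma cell line, and it was injected under the skin of the abdominal flank of mice 6 weeks old, which were either lean C57BL/6J or C57BL/6J-ob/ob, obese because they lack functional leptin. Poly(A) RNA of whole tumors was sequenced for 4 lean pre-therapy tumors (B6 ctrl), 4 lean ETS tumors (B6 ETS), 4 obese pre-therapy tumors (ob/ob ctrl) and 4 obese ETS tumors (ob/ob ETS). ETS tumors came from mice given 5 injections of etoposide at 20 mg per kg into the peritoneum and were taken a day after the course, and it is not given in the sources used here whether control mice received vehicle or for how long their tumors had grown. Effects of the drug and of tumor age or size therefore cannot be told apart. All tumors derive from 1 cell line, and every tumor holds host cells beside the injected cells.

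Etoposide binds topoisomerase II, the enzyme that passes one DNA duplex through a cut in another, and keeps it on the DNA with the cut open. The resulting double-strand breaks activate the kinases Atm and Atr and, through them, the transcription factor p53, which raises transcription of cell cycle inhibitors such as Cdkn1a, of its own inhibitor Mdm2 and of genes of apoptosis and repair. Topoisomerase II alpha (Top2a) is made mainly by dividing cells, whereas topoisomerase II beta (Top2b) is made by dividing and resting cells alike. In melanoma, the lineage factor Mitf drives the pigment genes, and tumor tissue after chemotherapy holds surviving tumor cells together with vessels, connective tissue and immune cells of the host.

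The total count per tumor ran from 47199949 to 61655287 reads assigned to genes. Pigment genes were abundant in every tumor, with Tyr, which encodes tyrosinase, between 394 and 1480.2 CPM (a gene's count per library total on a common scale, with library totals adjusted by the trimmed mean of M-values). Mitochondrially encoded genes took 4.02 to 6.04% of the counts in the 8 pre-therapy tumors, 9.75 to 14.4% in the lean ETS tumors and 4.63 to 11.6% in the obese ETS tumors, with obese ETS tumor 4 lowest among the ETS tumors. The same tumor stood apart from the others on the third principal component of log2 CPM, which held 13.4% of the variance. The share of mitochondrial counts moved with treatment.

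After ETS, 3568 genes (22% of the tested genes) were higher and 3729 (23%) were lower on average with the same sign in both hosts (edgeR quasi-likelihood test, adjusted p under 0.05). The median log2 change of the genes that rose was 0.61 (0.65 in lean and 0.52 in obese hosts), and that of the genes that fell was -0.51 (-0.49 in lean and -0.52 in obese hosts). Because the call on the average fixes much of the sign in each host, 98.9% of called genes agreed in sign against 40.6% of uncalled genes, and nothing is read from that agreement. A call in each host separately was reached by 1448 genes in the upward direction (8.93%) and by 1630 in the downward direction (10.1%). Over all tested genes, called or not, the 4 ETS and the 4 pre-therapy tumors did not overlap within either host for 1065 higher genes (6.57%). The same held for 1456 genes that were lower in both hosts (8.98%). Across all 16209 tested genes, whose values come from the same 16 libraries, the lean and the obese change had a Pearson correlation of 0.05 and a Spearman correlation of 0.35.

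**Figure D1:**
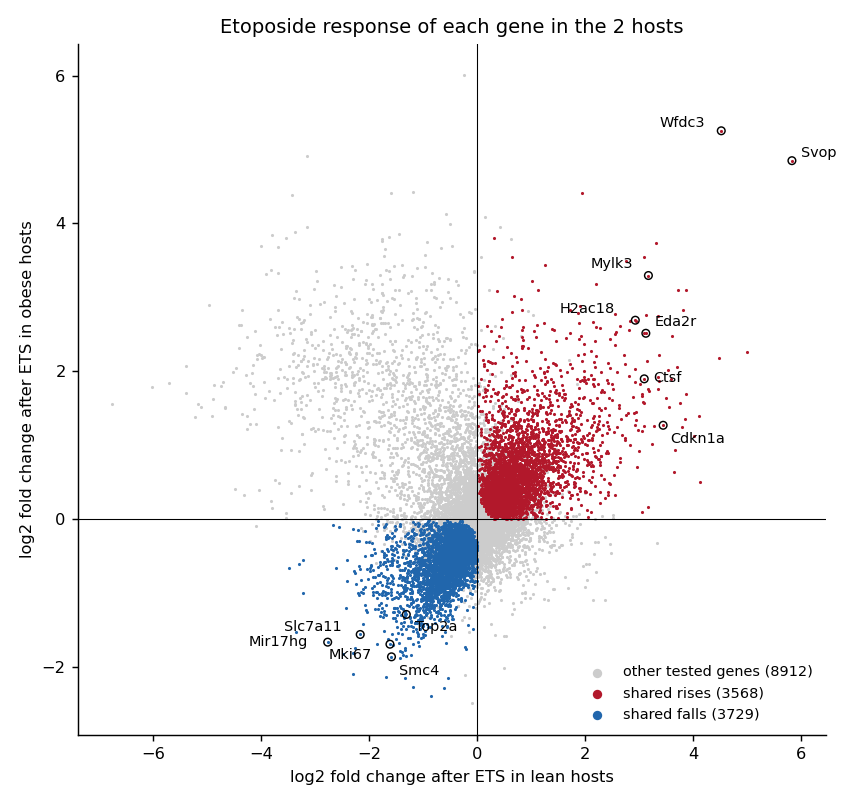
Log2 fold change after ETS in obese hosts (vertical axis) against that in lean hosts (horizontal axis), 1 point per tested gene, with genes higher and lower in both hosts on average in color. The 3568 genes that rose and the 3729 that fell fill the quadrants of equal sign, and uncalled genes reach far into the quadrants of opposite sign.

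At least a 2-fold change in both hosts was reached by 423 of the genes that rose and by 168 of those that fell, and at least a 4-fold change in both by 44 and by 1. Genes that rose took 21.0 to 26.8% of the counts of lean pre-therapy tumors and 36.2 to 47.4% of lean ETS tumors, and 23.1 to 26.0% of obese pre-therapy and 29.8 to 43.9% of obese ETS tumors. The genes that fell went from 23.3 to 24.9% down to 16.2 to 18.7% in lean and from 22.9 to 25.4% down to 15.6 to 18.3% in obese hosts. The change differed between hosts, by a test of the difference itself, for 436 of the genes that rose (12.2%), with 335 larger in lean and 101 larger in obese hosts. It differed for 218 of those that fell (5.85%), with 86 larger in lean and 132 larger in obese hosts, against 16.4% of all tested genes. The rule keeps out genes of opposite sign in the hosts, so lower shares were set in part by the choice. Nothing is read from them. In whole tumors, a fall in the number of cells of a type and a fall in RNA per cell cannot be told apart. On the deposited TPM values (transcript levels scaled by gene length and library total) with limma, the split was 1803 higher and 6036 lower, and the median of all tested genes moved by -0.16 on the log2 scale, so the direction of a weak member is relative to that shift. With the mitochondrially encoded genes taken out of TPM (TPM without mitochondrial genes) the split was 2777 higher and 4364 lower, and the median moved by -0.06. Without obese ETS tumor 4 the counts were 3679 higher and 3989 lower.

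The rankings of rises and falls were limited to genes of at least 1 CPM on average with a call in each host. They also required no overlap of ETS and pre-therapy tumors within either host, so that separation was fixed by the choice. Under these limits the largest rises in both hosts were Svop, Wfdc3, Bglap2, Mylk3, Hspb7, 1700007K13Rik, Cpz, Col10a1 and the histone genes H2ac18 and H2ac19. Most of them were near the floor of detection before therapy. Svop, which encodes a membrane protein related to synaptic vesicle transporters (gene ID 68666, chromosome 5, 114026913 to 114091380), stood at 0.0664, 0.138, 0.0618 and 0.159 CPM in the lean pre-therapy tumors and 6.91, 6.83, 5.08 and 5.83 in the lean ETS tumors. In obese hosts Svop was at 0.0827, 0.299, 0.184 and 0.053 CPM in the pre-therapy tumors and 7.0, 6.16, 3.44 and 1.44 in the ETS tumors. Every ETS tumor was above every pre-therapy tumor in both hosts, and obese ETS tumor 4 was the lowest of the ETS tumors. The average log2 change was 5.33 (standard error 0.42, adjusted p = 4.80e-07, edgeR), and Svop lies over the gene Gm16108 in the RefSeq annotation of GRCm38.p6, the build of all coordinates given here. Wfdc3, which encodes a secreted protein with whey acidic protein domains (gene ID 71856, chromosome 2, 164731226 to 164745994), stood at 0.332, 0.338, 0.386 and 0.763 CPM in the lean pre-therapy tumors and 14.7, 11.5, 6.89 and 8.67 in the lean ETS tumors. In obese hosts Wfdc3 was at 0.207, 0.359, 0.268 and 0.23 CPM in the pre-therapy tumors and 20.7, 14.1, 4.41 and 1.66 in the ETS tumors. The ranges did not overlap in either host, the average log2 change was 4.87 (standard error 0.47, adjusted p = 2.09e-06, edgeR), and obese ETS tumor 4 was again lowest. The changes of the remaining genes of this group were 3.51 for Bglap2, an osteocalcin gene with near-identical neighbors, 3.11 for Cpz, a carboxypeptidase of the matrix, and 3.05 for Col10a1, a collagen of growth plate cartilage that lies inside Nt5dc1. Mylk3, a cardiac myosin light chain kinase, changed by 3.23, and Hspb7, a small heat shock protein of heart and muscle, by 3.48. Summed CPM of 24 skeletal muscle markers was 16.7 to 337 and 29.3 to 601 in lean pre-therapy and ETS tumors and 35.9 to 50.9 and 41.7 to 825 in obese ones, and Hspb7 was highest in the obese tumor with the highest sum (14.9 CPM) and in the lean tumor with the highest sum (17 CPM). Hspb7 stood at 1.37 CPM in lean pre-therapy tumor 2 (sum 337) and at 8.39 CPM in obese ETS tumor 1 (sum 41.7). Its log2 change without obese ETS tumor 2 was 3.40 (adjusted p = 6.47e-05, edgeR). Mylk3 stood at 2.74 CPM in obese ETS tumor 2 and 4.46 CPM in obese ETS tumor 1. The part of muscle tissue in these values was not tested.

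**Figure D2:**
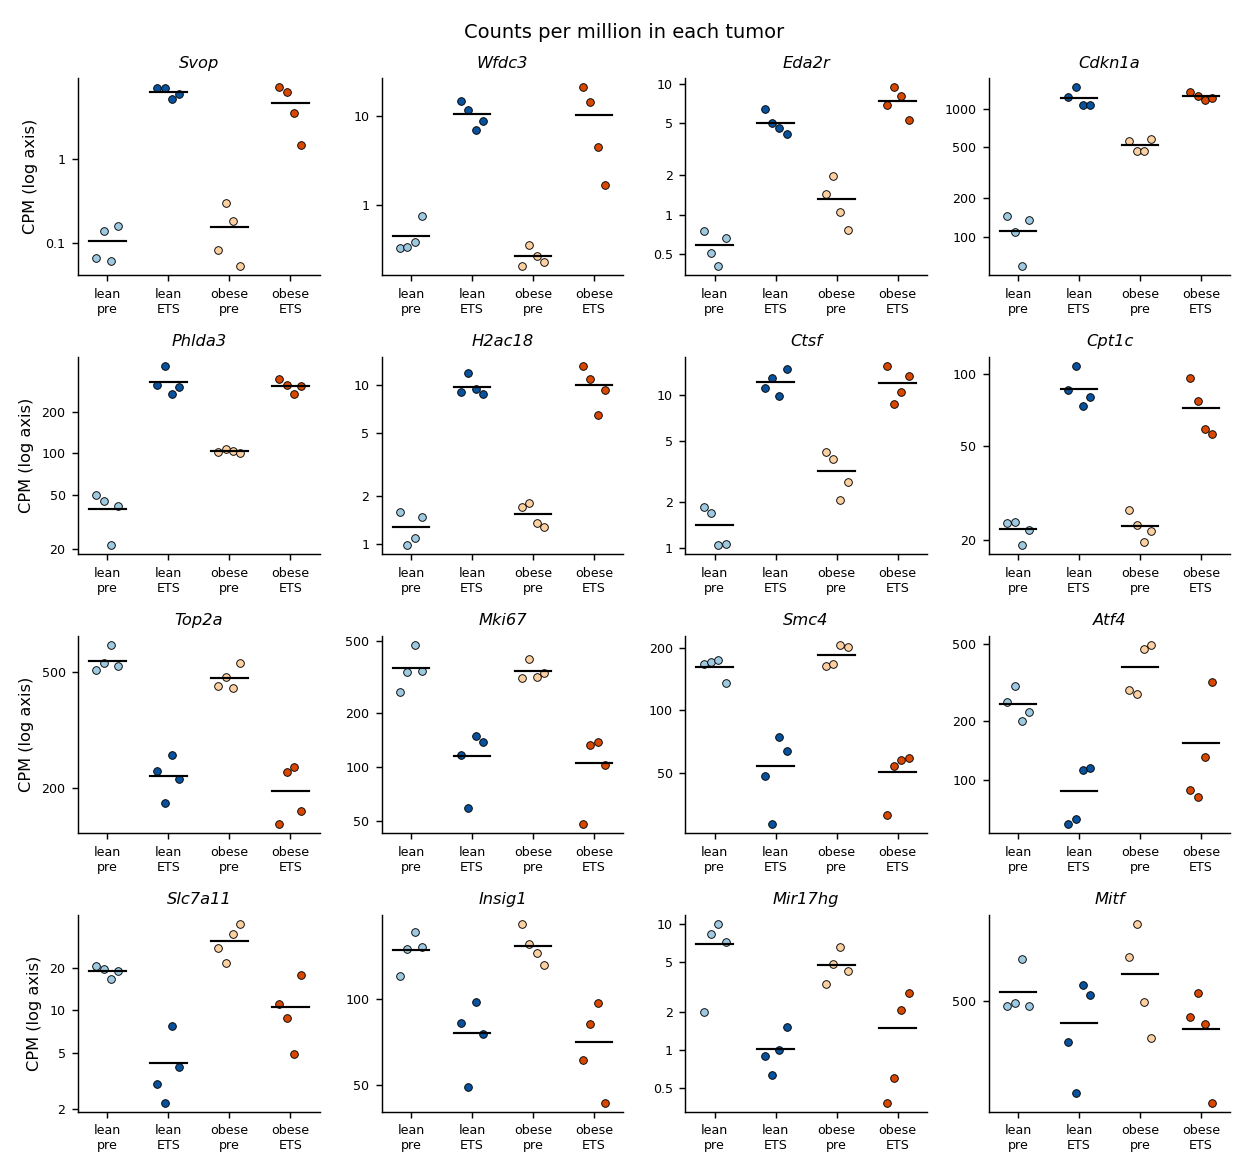
CPM on a log axis in each tumor for 16 genes of the shared response, grouped on the horizontal axis as lean pre-therapy, lean ETS, obese pre-therapy and obese ETS, with 1 point per tumor and a line at each mean of 4. Svop, Wfdc3, Eda2r and Cdkn1a stand higher in every ETS tumor than in any pre-therapy tumor, Top2a, Mki67 and Smc4 lower in every ETS tumor, and Mitf overlaps between groups.

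Of 30 listed p53 targets, 29 were tested and 19 rose, against 22% of all tested genes, 15 with a call in each host (8.93% of all genes), and none fell. Their median log2 change was 0.82 on average, 0.87 in lean and 0.76 in obese hosts, against 0.01 for all tested genes. The summed CPM of the listed genes was 1106, 1054, 872 and 1059.6 in lean pre-therapy tumors and 4041, 4532, 3712 and 3794 in lean ETS tumors. In obese hosts the sum was 1991, 1917, 1973 and 2021 before therapy and 3944, 3843, 3644 and 3484 after ETS. The sums did not overlap in either host, the obese pre-therapy tumors lay above the lean ones, and the ETS tumors of both hosts covered a similar range. The change differed between hosts for 11 of the 29 genes (16.4% of all genes).

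Cdkn1a, the gene of the p21 inhibitor of cyclin-dependent kinases (gene ID 12575, chromosome 17, 29090979 to 29100722), stood at 146, 108, 58.8 and 135 CPM in the lean pre-therapy tumors and 1232, 1472, 1073 and 1078 in the lean ETS tumors. In obese hosts Cdkn1a was at 561, 467, 467 and 584 CPM in the pre-therapy tumors and 1349.7, 1261, 1178 and 1217 in the ETS tumors. All ETS tumors lay above all pre-therapy tumors, and the obese pre-therapy tumors lay between. The log2 change was 2.35 (standard error 0.34, adjusted p = 5.96e-05, edgeR) on average, 3.44 in lean and 1.27 in obese hosts, and the lean change exceeded the obese by 2.17 (adjusted p = 0.000185, edgeR). Mdm2, the ubiquitin ligase that removes p53 (gene ID 17246, chromosome 10, 117688875 to 117710758), stood at 52, 59.6, 64.9 and 67.3 CPM in the lean pre-therapy tumors and 105, 90.2, 121 and 109.7 in the lean ETS tumors. In obese hosts Mdm2 was at 67.2, 72.2, 73.3 and 83.2 CPM in the pre-therapy tumors and 117, 114, 138 and 156 in the ETS tumors. Mdm2 changed by 0.82 (standard error 0.08, adjusted p = 3.42e-06, edgeR), with 0.80 in lean and 0.83 in obese hosts, and the groups did not overlap within either host. Eda2r, a receptor of the tumor necrosis factor family (gene ID 245527, chromosome X, 97333837 to 97377234), stood at 0.747, 0.507, 0.402 and 0.667 CPM in the lean pre-therapy tumors and 6.47, 5.03, 4.62 and 4.13 in the lean ETS tumors. In obese hosts Eda2r was at 1.45, 1.97, 1.05 and 0.759 CPM in the pre-therapy tumors and 6.96, 9.45, 8.18 and 5.27 in the ETS tumors. The average log2 change of Eda2r was 2.81 (standard error 0.23, adjusted p = 6.32e-07, edgeR), the largest of the list, and Eda2r overlaps the gene model Gm18111. Phlda3, a repressor of Akt signaling, rose from 39.2 ± 12.2 to 329 ± 69.3 CPM in lean and from 103 ± 3.02 to 309 ± 32.2 CPM in obese hosts (SD, n = 4), and its change was larger in lean hosts by 1.49 (adjusted p = 0.00197, edgeR). Dcxr, a reductase of sugars and dicarbonyls, changed by 2.48 on average.

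Of 44 listed genes of the Bcl2 family, caspases and death receptors, 36 were tested. Of these 7 rose, against 22% of all tested genes, and 4 fell, against 23% (Casp2, Fadd, Xiap and Birc2). A further 2 were called with opposite signs in the hosts (Casp8 and Cflar), and the hosts differed for 18. The median was 0.02 (-0.15 in lean and 0.21 in obese hosts), and -0.21 on log2(TPM + 1) and -0.07 on TPM without mitochondrial genes. Tnfrsf10b, the mouse receptor of the death ligand Trail, rose from 10.3 ± 1.02 to 26.8 ± 2.63 CPM in lean and from 13.9 ± 0.706 to 31.3 ± 3.49 CPM in obese hosts (SD, n = 4), a log2 change of 1.28 (standard error 0.08, adjusted p = 9.78e-08, edgeR). Bcl2l1, whose main product Bcl-xL blocks apoptosis, changed by 1.14 (standard error 0.13, adjusted p = 7.56e-06, edgeR), and it overlaps Cox4i2. Casp2, an initiator caspase, fell from 72.9 ± 6.85 to 46.5 ± 7.58 CPM in lean and from 59.6 ± 3.96 to 37.3 ± 4.39 CPM in obese hosts, with a log2 change of -0.66 (standard error 0.08, adjusted p = 1.41e-05, edgeR).

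Of 28 genes linked to senescence and its secretory phenotype, 19 were tested, 4 rose (Cdkn1a, Glb1, Igfbp4 and Timp1) and 3 fell (Lmnb1, Hmgb1 and Hmgb2), and the median was 0.33 (-0.72 in lean and 1.27 in obese hosts). Those that fell most were genes of chromatin proteins, Hmgb2 at -1.75 (adjusted p = 7.09e-06) and Hmgb1 at -1.15 (adjusted p = 5.77e-06), and Cdkn1a was the largest rise. Among 29 immediate early genes, which respond first to growth signals and stress, 5 rose (Fos, Fosl1, Junb, Dusp6 and Btg2) and 3 fell (Ier2, Nr4a3 and Myc), with a median of -0.09 (lean hosts -0.31, obese hosts 0.32). Of all tested genes 22% rose and 23% fell. The counts were 1 higher and 6 lower on log2(TPM + 1) and 3 and 5 on TPM without mitochondrial genes. Btg2, an antiproliferative p53 target, rose by 1.19 (adjusted p = 0.000230), while Myc, the growth regulator, fell from 71.4 ± 16.2 to 41.1 ± 9.61 CPM in lean and from 56.7 ± 13.2 to 34.8 ± 8.75 CPM in obese hosts with a log2 change of -0.75 (adjusted p = 0.00100). Nr4a3, an orphan nuclear receptor, changed by -0.61 (adjusted p = 0.000438). Of 11 drug efflux transporters, 9 were tested and 2 rose, a share like the 22% of all tested genes. The hosts differed for 5, with medians of -0.48 in lean and 0.25 in obese hosts. Both had a call in each host, Abcc2 by 1.65 (adjusted p = 0.000951) and Abcg2, whose product is known to export many anticancer drugs, by 0.66 (adjusted p = 2.24e-05). Abcc2 was near the floor, from 0.301 to 2.92 CPM, whereas Abcg2 stood at 31.6 ± 3.07 and 26.8 ± 3.53 CPM before therapy and 46.4 ± 7.05 and 45.4 ± 1.55 CPM after ETS in lean and obese hosts.

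Genes of DNA replication and mitosis fell almost as whole lists. Of 47 mitotic genes 46 fell, 45 with a call in each host, against 23% and 10.1% of all tested genes, with a median of -0.81. Of 46 replication genes 43 fell, 41 with a call in each host, with a median of -0.71, and none rose. Pttg1, which encodes securin, was the single mitotic gene that rose, by 0.27, and like other genes named only as the members of a small count it was chosen after its value was seen. The fall differed between hosts for 4 mitotic and 3 replication genes.

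Mki67, the proliferation marker Ki-67 (gene ID 17345, chromosome 7, 135689784 to 135716450), stood at 261, 335, 475 and 341 CPM in the lean pre-therapy tumors and 117, 58.7, 149 and 136 in the lean ETS tumors. In obese hosts Mki67 was at 310.0, 398, 316 and 331 CPM in the pre-therapy tumors and 47.9, 132, 137 and 102 in the ETS tumors. All pre-therapy tumors were above all ETS tumors, with a log2 change of -1.66 (standard error 0.22, adjusted p = 2.63e-05, edgeR). Top2a, the main target of etoposide in dividing cells (gene ID 21973, chromosome 11, 98992947 to 99024199), stood at 506, 536, 618 and 524 CPM in the lean pre-therapy tumors and 228, 177, 259 and 214 in the lean ETS tumors. In obese hosts Top2a was at 447, 479, 439 and 537 CPM in the pre-therapy tumors and 149.9, 226, 235 and 166 in the ETS tumors. The groups did not overlap, the log2 change was -1.30 (standard error 0.10, adjusted p = 5.07e-07, edgeR), with -1.31 in lean and -1.29 in obese hosts, and the pre-therapy ranges of the hosts overlapped. Smc4, a condensin subunit that overlaps the microRNA genes Mir15b and Mir16-2, fell from 162 ± 18.3 to 53.9 ± 20.1 CPM in lean and from 184 ± 22.2 to 50.6 ± 12.9 CPM in obese hosts. Kif15, Kif20b and Cenpe, motor proteins of the spindle and midzone, changed by -1.57, -1.56 and -1.41 on the log2 scale, and Knl1, a kinetochore scaffold, by -1.47. Gins1, a subunit of the replicative helicase, changed by -1.15, Pole2, a subunit of polymerase epsilon, by -1.13 and Uhrf1, which copies DNA methylation to new strands, by -1.12.

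The promoter of Top2a (chr11:99024190-99024439, minus strand), a target of the drug and a member that fell, is shown because the 250 bases before its RefSeq start (GRCm38.p6) hold the cell cycle homology region core TTTGAA, on either strand, in capitals. A match is a description of letters and not a shown binding site.
Top2a: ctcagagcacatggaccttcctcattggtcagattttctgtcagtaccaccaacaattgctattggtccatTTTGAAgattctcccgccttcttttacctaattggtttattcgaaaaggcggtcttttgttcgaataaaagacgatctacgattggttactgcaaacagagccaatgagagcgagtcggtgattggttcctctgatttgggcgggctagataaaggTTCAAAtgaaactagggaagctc
Of the tested genes, 11488 had a promoter in the table, and TTTGAA was in 11.0% of these and the CCAAT box (CCAAT) in 36.8%, each searched on both strands. In the mitotic list TTTGAA was in 13 of 38 promoters (34.2%) and CCAAT in 28 of 38 promoters (73.7%). In the DNA replication list the E2F core GCGGGAA was in 10 of 38 promoters (26.3%), against 6.72% of all, and the double-strand break list had it in 8 of 32 promoters (25.0%). Over all members the shares were closer to the background, with TTTGAA in 345 of 2768 promoters of genes that fell and 271 of 2711 of genes that rose, and the AP-1 motif TGANTCA in 2.67% and 5.90%, against 4.35% of all.

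Of the 8 topoisomerases and tyrosyl-DNA phosphodiesterases, 6 fell, 4 with a call in each host, against 23% and 10.1% of all tested genes. Top3b alone rose, by 0.15. Top2b went from 90.4 ± 7.99 to 74.3 ± 5.71 CPM in lean and from 106 ± 3.93 to 63.7 ± 12.4 CPM in obese hosts (SD, n = 4), a log2 change of -0.51 (standard error 0.10, adjusted p = 0.000703, edgeR), smaller in size than that of Top2a in both hosts. Top1, the target of camptothecins, changed by -0.70 (adjusted p = 0.000349) and Tdp1, which removes trapped topoisomerase I from DNA ends, by -0.64 (adjusted p = 1.40e-05). Double-strand break repair and Fanconi genes fell for 31 of 43, 25 with a call in each host, against 23% and 10.1% of all tested genes. Rad51d alone rose, by 0.24. Polq, the polymerase of microhomology-mediated joining, fell by 1.33 on the log2 scale, Bard1, the partner of Brca1, fell by 1.33 and Rad51c, a factor of homologous recombination, fell by 1.05. The median of the list was -0.58.

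Mir17hg, the host transcript of the miR-17-92 microRNA cluster (gene ID 75957, chromosome 14, 115044390 to 115046728), stood at 1.99, 8.41, 10.1 and 7.26 CPM in the lean pre-therapy tumors and 0.891, 0.639, 1.0 and 1.52 in the lean ETS tumors. In obese hosts Mir17hg was at 3.33, 4.85, 6.58 and 4.24 CPM in the pre-therapy tumors and 0.381, 0.597, 2.1 and 2.87 in the ETS tumors. This was the largest fall of the ranking, -2.22 (standard error 0.43, adjusted p = 0.000732, edgeR), with the groups apart within each host but lean pre-therapy tumor 1 below 2 of the obese ETS tumors, and the value is of the host transcript and not of the mature microRNAs. Among the other large falls, Hmgn5, a nucleosome-binding protein, changed by -1.57 and Adamts20, a secreted protease of pigment cell migration, by -1.61. Gm20875, a predicted gene overlapping Zfp993, changed by -1.60.

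Histone cluster genes, whose transcripts normally end in a stem-loop without a poly(A) tail and are made in S phase, are described apart from the replication list. The histone list was drawn up after H2ac18 and H2ac19 had appeared among the largest rises, so its count supports nothing. Of 69 listed genes 58 were tested, 25 rose and 2 fell (H3c3 and H2ac10), against 22% and 23% of all tested genes. The counts were 23 higher and 6 lower on log2(TPM + 1). The change differed between hosts for none at adjusted p under 0.05. Most of the tested histone genes had a mean under 1 CPM, near the floor of detection. H2bc4, H1f2 and H2bc21 had the highest means, at 25.7, 18.6 and 13.1 CPM. The summed CPM was 46.9 to 58.1 before therapy and 118 to 124 after ETS in lean hosts, and 47 to 56.9 and 125 to 161 in obese hosts, with no overlap. H2ac18, an H2A gene (gene ID 15267, chromosome 3, 96245497 to 96246052), stood at 1.58, 0.984, 1.08 and 1.48 CPM in the lean pre-therapy tumors and 9.0, 11.9, 9.38 and 8.7 in the lean ETS tumors. In obese hosts H2ac18 was at 1.7, 1.81, 1.36 and 1.27 CPM in the pre-therapy tumors and 13.1, 10.9, 6.45 and 9.23 in the ETS tumors. All ETS tumors were above all pre-therapy tumors, with a log2 change of 2.81 (standard error 0.17, adjusted p = 9.78e-08, edgeR). H2ac19 gave nearly the same values (log2 change 2.80), and since the pair is near-identical in sequence their reads may have been shared, and the single values are uncertain. The libraries were poly(A)-selected, so only histone transcripts that were captured this way were counted, and the part of capture in the change was not tested.

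The promoter of H2ac18 (chr3:96245247-96245496, plus strand) is shown because it stands among the largest rises, with the CCAAT box in capitals.
H2ac18: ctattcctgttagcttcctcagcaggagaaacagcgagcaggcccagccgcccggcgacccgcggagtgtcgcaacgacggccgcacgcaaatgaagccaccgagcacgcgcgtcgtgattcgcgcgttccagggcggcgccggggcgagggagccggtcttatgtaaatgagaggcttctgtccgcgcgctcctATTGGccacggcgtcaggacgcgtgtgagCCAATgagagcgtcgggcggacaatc
CCAAT was in 43 of 52 promoters (82.7%) of the histone list and TTTGAA in 23 of 52 promoters (44.2%).

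Of 31 genes of the integrated stress and unfolded protein response, 15 fell, against 23% of all tested genes, 7 with a call in each host, and 2 rose, Sesn2 by 0.92 and Dnajb9 by 0.43, with a median of -0.34. Atf4, a transcription factor of the integrated stress response (gene ID 11911, chromosome 15, 80255184 to 80257545), stood at 252, 305, 201 and 224 CPM in the lean pre-therapy tumors and 59.3, 62.5, 112 and 116 in the lean ETS tumors. In obese hosts Atf4 was at 289, 275, 469 and 492 CPM in the pre-therapy tumors and 88.1, 81.8, 132 and 318 in the ETS tumors. The lean groups did not overlap, and in obese hosts tumor 4 of the ETS group lay within the pre-therapy range. The log2 change of Atf4 was -1.39 (standard error 0.27, adjusted p = 0.000650, edgeR), and without that tumor -1.69 (adjusted p = 2.40e-05). Slc7a11, the cystine importer that feeds glutathione synthesis (gene ID 26570, chromosome 3, 50364936 to 50499087), stood at 20.6, 19.8, 16.7 and 19 CPM in the lean pre-therapy tumors and 2.99, 2.2, 7.79 and 3.92 in the lean ETS tumors. In obese hosts Slc7a11 was at 27.7, 21.5, 34.8 and 41.1 CPM in the pre-therapy tumors and 11.1, 8.75, 4.86 and 17.7 in the ETS tumors. The groups were apart within each host, with a log2 change of -1.86 (standard error 0.28, adjusted p = 8.73e-05, edgeR). Chac1, which degrades glutathione, fell from 22.5 ± 10.3 to 6.58 ± 1.07 CPM in lean and from 40.8 ± 16.3 to 17 ± 10.7 CPM in obese hosts (SD, n = 4), where obese ETS tumor 4 was far above the other 3 at 33.1 CPM. The log2 change of Chac1 was -1.52 (adjusted p = 0.000715) with that tumor and -1.80 (adjusted p = 4.51e-05) without it.

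Members among the genes that charge transfer RNA and the genes of the proteasome were mostly in the downward direction. Of all tested genes 22% rose and 23% fell, and 10.1% fell with a call in each host. Of 19 tested aminoacyl-tRNA synthetases, the enzymes that join amino acids to transfer RNA, 11 fell, 9 with a call in each host, and 1 rose (Qars), with a median of -0.33. Cars, for cysteine, changed by -0.86 (adjusted p = 1.61e-05) and Tars, for threonine, by -0.65 (adjusted p = 7.79e-06). Of 31 proteasome genes 14 fell and none rose, with a median of -0.18, and Psma1, a subunit of the core, changed by -0.63 (adjusted p = 2.09e-06) and Psmd11, a subunit of the lid, by -0.53 (adjusted p = 1.24e-05). Psma5, another core subunit, changed by -0.54 (adjusted p = 6.75e-06). Of 25 genes of the antioxidant factor Nfe2l2 5 rose (G6pdx, Gpx4, Fth1, Gstm1 and Gstp1) and 8 fell, against 22% and 23% of all tested genes. Txnrd1, thioredoxin reductase, changed by -0.78 (adjusted p = 2.45e-05) and Gclc, the first enzyme of glutathione synthesis, by -0.78 (adjusted p = 0.000811).

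The promoters of Slc7a11 (chr3:50443614-50443863, minus strand) and Chac1 (chr2:119350992-119351241, plus strand) are shown as members of the stress response list that fell, with the amino acid response core TGATGNAA, searched on both strands, in capitals. The table gives 1 start for each gene whose promoter is printed, and those of Slc7a11 and Top2a lie inside the annotated span of the gene. For genes with several starts the first listed one was searched.
Slc7a11: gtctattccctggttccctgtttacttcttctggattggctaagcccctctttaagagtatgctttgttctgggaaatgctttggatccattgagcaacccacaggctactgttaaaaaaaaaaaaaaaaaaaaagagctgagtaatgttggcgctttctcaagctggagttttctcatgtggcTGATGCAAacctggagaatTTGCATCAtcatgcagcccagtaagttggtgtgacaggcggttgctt
Chac1: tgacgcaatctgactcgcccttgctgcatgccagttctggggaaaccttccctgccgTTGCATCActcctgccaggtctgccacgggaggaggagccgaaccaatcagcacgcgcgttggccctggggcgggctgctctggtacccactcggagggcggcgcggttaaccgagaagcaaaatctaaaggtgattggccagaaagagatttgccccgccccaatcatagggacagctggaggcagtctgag
This core was in 2.06% of the promoters of all tested genes, in 6 of 29 promoters (20.7%) of the stress response list and in 3 of 12 promoters (25.0%) of the aminoacyl-tRNA synthetases. The sterol regulatory core TCACNCCAC was in 1 of 17 promoters (5.88%) of the cholesterol list described next, against 0.966% of all, and CCAAT was in 15 of 17 promoters (88.2%) of it.

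Most genes of cholesterol synthesis fell. Of 25 genes of the pathway and targets of its regulator Srebf2, 15 fell, against 23% of all tested genes. A call in each host was reached by 11, against 10.1% of all tested genes. Hsd17b7 alone rose, by 0.57, and the change differed between hosts for none at adjusted p under 0.05. The median was -0.53 (-0.35 in lean and -0.65 in obese hosts). Insig1, a sterol-regulated inhibitor of Srebf processing (gene ID 231070, chromosome 5, 28071412 to 28078662), stood at 120.1, 149, 171 and 152 CPM in the lean pre-therapy tumors and 82.5, 49.4, 97.3 and 75.8 in the lean ETS tumors. In obese hosts Insig1 was at 183, 155, 145 and 131 CPM in the pre-therapy tumors and 61, 81.8, 96.8 and 43.4 in the ETS tumors. The ranges did not overlap, with a log2 change of -1.04 (standard error 0.16, adjusted p = 0.000104, edgeR). Hmgcs1, which makes the precursor of mevalonate, changed by -0.92 (adjusted p = 0.000254). Of 17 tested genes of fatty acid synthesis and desaturation 3 rose (Acacb, Elovl7 and Thrsp) and 6 fell, against 22% and 23% of all tested genes. Elovl6, an elongase, changed by -0.86 (adjusted p = 0.000409) and Fads1, a desaturase, by -0.57 (adjusted p = 2.09e-05), while Acacb, the acetyl-CoA carboxylase at the outer mitochondrial membrane, rose by 0.74 (adjusted p = 0.000288).

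Many genes of fatty acid oxidation rose. Of 27 genes of mitochondrial beta-oxidation and the carnitine shuttle, 17 rose, against 22% of all tested genes, 12 with a call in each host, and none fell, with a median of 0.48 (lean hosts 0.58, obese hosts 0.31). The split was 13 higher and 5 lower on log2(TPM + 1) and 15 and 3 on TPM without mitochondrial genes. Cpt1c, a brain-type relative of the carnitine palmitoyltransferases (gene ID 78070, chromosome 7, 44958483 to 44974880), stood at 23.7, 23.9, 19.1 and 22.1 CPM in the lean pre-therapy tumors and 86, 108, 73.5 and 80.4 in the lean ETS tumors. In obese hosts Cpt1c was at 26.9, 23.3, 19.7 and 21.9 CPM in the pre-therapy tumors and 96.5, 77.4, 58.9 and 55.8 in the ETS tumors. The ranges were far apart in both hosts, with a log2 change of 1.81 (standard error 0.13, adjusted p = 1.96e-07, edgeR). Acad10, an acyl-CoA dehydrogenase family member that overlaps Brap, changed by 1.10 (adjusted p = 5.00e-06) and Acadvl, the dehydrogenase of very long chains, by 0.89 (adjusted p = 1.46e-05). Of 16 tested peroxisomal oxidation genes 8 rose and none fell, among them Acox3 by 0.76 (adjusted p = 7.82e-05) and Acaa1b, a thiolase with a close paralog, by 0.56 (adjusted p = 0.00858). Ppara, a nuclear receptor that drives many genes of fatty acid oxidation, was near the floor at 0.353 to 1.34 CPM, and its log2 value of 0.51 (adjusted p = 0.0962) did not pass the test, though it did without lean ETS tumor 4 or obese ETS tumor 4, at 0.60 (adjusted p = 0.0394) without the latter.

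All 13 mitochondrially encoded protein genes rose on average, 10 with a call in each host, with a median of 1.19, and the change differed between hosts for none at adjusted p under 0.05. Their summed CPM was 61565, 40485, 38124 and 46329 in lean pre-therapy tumors and 141012, 166262, 99817 and 117256 in lean ETS tumors. In obese hosts the sum was 53841, 49069, 45779 and 39779.5 before therapy and 127088, 123441, 62695 and 45199 after ETS. Lean groups were apart, whereas obese ETS tumor 4 lay within the obese pre-therapy range, and the log2 change of ND1 was 1.47 (adjusted p = 2.59e-05) without it. ND1, a subunit of complex I, changed by 1.37 (adjusted p = 0.000251), ND3 by 1.24 (adjusted p = 0.000218) and ND6, which lies opposite ND5 on the other strand, by 1.40 (adjusted p = 0.000739), and without stranded counting reads of ND6 and ND5 cannot be told apart. Of 72 nuclear-encoded genes of oxidative phosphorylation 54 rose, against 22% of all tested genes, and 5 had a call in each host, against 8.93%. In this list 4 were called with opposite signs (Ndufa12, Ndufs5, Ndufv3 and Atp5j2) and none fell. On log2(TPM + 1) 32 of the list were higher and none lower. The change differed between hosts for 47 of them, with medians of 0.68 in lean and 0.14 in obese hosts. Ndufa13 and Ndufa11, subunits of complex I, changed by 1.10 in lean and 0.54 in obese hosts and by 1.01 in lean and 0.49 in obese hosts, and Atp5g1, a subunit of the ATP synthase ring, by 0.90 in lean and 0.38 in obese hosts.

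Of 78 genes of cytosolic ribosomal proteins 1 rose and 4 fell, among them Rpl4, Rpl21 and Rps3a1, below the 22% and 23% of all tested genes. The hosts differed for 36. The counts were 0 higher and 42 lower on log2(TPM + 1) and 1 and 11 on TPM without mitochondrial genes. The median was 0.01, with 0.28 in lean and -0.25 in obese hosts. The change was above 0 for 72 of the 78 in lean and for 2 in obese hosts. The average median was -0.22 on log2(TPM + 1) and -0.07 on TPM without mitochondrial genes. Rplp1, of the ribosomal stalk, changed by 0.44 (adjusted p = 0.0116), Rpl21 by -0.35 (adjusted p = 0.0335) and Rpl4 by -0.27 (adjusted p = 0.0376), and reads of such genes may be shared with processed pseudogenes. Rpl21 and Rpl4 each lost the call when 1 of 9 tumors was left out in turn. Of 74 mitochondrial ribosomal genes 10 rose and 11 fell, below the 22% and 23% of all tested genes. The counts were 1 higher and 40 lower on log2(TPM + 1) and 10 and 21 on TPM without mitochondrial genes. The median was 0.06, with 0.23 in lean and -0.15 in obese hosts, and the hosts differed for 19. The change was above 0 for 60 of the 74 in lean and for 14 in obese hosts. The average median was -0.17 on log2(TPM + 1) and -0.02 on TPM without mitochondrial genes. Mrps6, which overlaps Slc5a3, changed by 0.49 (adjusted p = 0.00291), Mrps22 by -0.58 (adjusted p = 0.00150) and Mrpl18 by -0.43 (adjusted p = 0.00108). Among 21 glycolysis genes 5 rose (Hk1, Gpi1, Pfkl, Pfkm and Eno2), near the 22% of all tested genes and 1 of them with a call in each host, and 1 fell (Hk2), with Hk1, the first enzyme of the pathway, at 0.73 (adjusted p = 5.41e-05), Pfkl at 0.52 (adjusted p = 0.00383) and Eno2, the neuronal enolase, at 0.71 (adjusted p = 0.00203). The glycolysis median was 0.24, with 0.54 in lean and 0.08 in obese hosts, and the hosts differed for 7. Of 23 hypoxia targets 5 rose (Car9, Car12, Egln1, Ak4 and Loxl2), a share like the 22% of all tested genes. None had a call in each host and none fell. The hosts differed for 5 hypoxia targets, with medians of 0.62 in lean and 0.004 in obese hosts. The change was above 0 for 21 of the 23 in lean and for 12 in obese hosts. The counts were 1 higher and 0 lower on log2(TPM + 1) and 4 and 0 on TPM without mitochondrial genes, and the median was 0.21, and -0.05 on log2(TPM + 1) and 0.09 on TPM without mitochondrial genes. Loxl2, which crosslinks collagen, changed by 0.91 (adjusted p = 0.00439), Car9, a carbonic anhydrase induced by low oxygen, by 0.77 (adjusted p = 0.0107) and its relative Car12 by 1.03 (adjusted p = 0.0127).

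Most lysosomal genes rose. Of 45 genes 34 rose, against 22% of all tested genes, 13 with a call in each host, 1 fell, and the median was 0.49 (0.31 in lean and 0.71 in obese hosts). Ctsf, cathepsin F, a lysosomal cysteine protease (gene ID 56464, chromosome 19, 4855165 to 4860918), stood at 1.86, 1.69, 1.05 and 1.06 CPM in the lean pre-therapy tumors and 11.1, 12.8, 9.77 and 14.7 in the lean ETS tumors. In obese hosts Ctsf was at 4.24, 3.79, 2.06 and 2.72 CPM in the pre-therapy tumors and 15.3, 8.69, 10.4 and 13.2 in the ETS tumors. No ETS tumor overlapped a pre-therapy tumor, the log2 change was 2.49 (standard error 0.25, adjusted p = 3.29e-06, edgeR), and it was larger in lean hosts by 1.19 (adjusted p = 0.0371, edgeR). Ctsd, cathepsin D, rose from 1322 ± 331 to 2209 ± 337 CPM in lean and from 900.2 ± 54.2 to 2086 ± 572 CPM in obese hosts (SD, n = 4), a log2 change of 0.98 (standard error 0.15, adjusted p = 0.000115, edgeR). Cd63, a membrane protein of late endosomes and melanosomes, changed by 0.86 (adjusted p = 0.000303). Macrophages are rich in lysosomes, and their 13 tested markers were called in neither direction, with medians of -2.30 in lean and 2.25 in obese hosts and a summed CPM of 533 to 1585 and 54.6 to 468 in lean pre-therapy and ETS tumors and 52.4 to 297 and 400.1 to 1253 in obese ones. Their part in the lysosomal values was not tested. The lysosomal split was 14 higher and 2 lower on log2(TPM + 1) and 26 and 1 on TPM without mitochondrial genes. Of 31 autophagy genes 16 rose and 4 fell (Atg3, Uvrag, Atg2b and Rb1cc1), against 22% and 23% of all tested genes. The autophagy median was 0.21, and -0.04 on log2(TPM + 1) and 0.10 on TPM without mitochondrial genes. The autophagy counts were 5 higher and 6 lower on log2(TPM + 1) and 11 and 5 on TPM without mitochondrial genes. Map1lc3a and Gabarap, proteins of the autophagosome membrane, changed by 1.10 (adjusted p = 6.19e-05) and 0.59 (adjusted p = 0.00123) and Atg13, of the initiating kinase complex, by 0.44 (adjusted p = 0.000400).

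The promoters of Ctsf (chr19:4854915-4855164, plus strand) and Ctsd (chr7:142387828-142388077, minus strand) are shown as lysosomal members that rose, with the core of the lysosomal CLEAR element, CACGTG, in capitals.
Ctsf: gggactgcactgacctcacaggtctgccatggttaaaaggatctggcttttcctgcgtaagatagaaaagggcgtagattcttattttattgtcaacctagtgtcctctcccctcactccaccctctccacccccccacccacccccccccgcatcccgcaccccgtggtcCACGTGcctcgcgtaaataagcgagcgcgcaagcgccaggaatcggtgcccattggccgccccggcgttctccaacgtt
Ctsd: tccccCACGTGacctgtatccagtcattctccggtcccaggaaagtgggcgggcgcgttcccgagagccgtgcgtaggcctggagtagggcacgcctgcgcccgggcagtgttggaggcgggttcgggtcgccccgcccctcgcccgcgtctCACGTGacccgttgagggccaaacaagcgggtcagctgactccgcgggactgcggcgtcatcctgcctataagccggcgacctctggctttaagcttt
CACGTG, which is also the general E-box of Myc and other factors, was in 8.19% of all promoters and in 12 of 34 promoters (35.3%) of the lysosome list. The p53 half-site, by its consensus letters on both strands, was in 6.17% of all promoters and in 7 of 22 promoters (31.8%) of the p53 target list.

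Of 18 genes of the melanocyte lineage and pigmentation 7 rose, against 22% of all tested genes, 3 with a call in each host, and none fell. The counts were 4 higher and 3 lower on log2(TPM + 1) and 6 and 1 on TPM without mitochondrial genes, and the median was 0.38, and 0.09 on log2(TPM + 1) and 0.24 on TPM without mitochondrial genes. Tyr, tyrosinase, the first enzyme of melanin synthesis (gene ID 22173, chromosome 7, 87424771 to 87493512), stood at 735, 518, 649 and 686 CPM in the lean pre-therapy tumors and 1480.2, 1259.7, 1206 and 1265 in the lean ETS tumors. In obese hosts Tyr was at 701, 649, 441 and 394 CPM in the pre-therapy tumors and 1449, 1297, 895 and 495 in the ETS tumors. The lean groups did not overlap, while obese ETS tumor 4 lay within the pre-therapy range, and the log2 change was 0.97 (standard error 0.19, adjusted p = 0.000644, edgeR), or 1.06 (adjusted p = 3.17e-05) without that tumor. Oca2, a melanosomal transporter, changed by 1.25 (adjusted p = 0.000215) and Gpr143, a melanosomal receptor, by 0.74 (adjusted p = 0.0156). Mitf, the factor that drives these genes, had a log2 value of -0.41 (adjusted p = 0.0840), with -0.30 in lean and -0.53 in obese hosts, and did not pass the test, though it did without lean ETS tumor 3 or obese pre-therapy tumor 4, at -0.49 (adjusted p = 0.0482) without the former. Of 16 tested genes of the invasive melanoma state 3 rose (Fosl1, Vim and Loxl2) and 1 fell, against 22% and 23% of all tested genes, and the hosts differed for 7. The median was 0.22 (-0.79 in lean and 1.14 in obese hosts), and -0.06 on log2(TPM + 1) and 0.07 on TPM without mitochondrial genes. Vim, vimentin, rose from 1669 ± 232 to 3138 ± 172 CPM in lean and from 1790.1 ± 195 to 3562 ± 789 CPM in obese hosts, and Tead1, a partner of the growth regulator Yap, changed by -0.71 (adjusted p = 0.00295).

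The promoter of Tyr (chr7:87493513-87493762, minus strand) is shown for the pigment genes, with the M-box core CATGTG, a core bound by Mitf, in capitals.
Tyr: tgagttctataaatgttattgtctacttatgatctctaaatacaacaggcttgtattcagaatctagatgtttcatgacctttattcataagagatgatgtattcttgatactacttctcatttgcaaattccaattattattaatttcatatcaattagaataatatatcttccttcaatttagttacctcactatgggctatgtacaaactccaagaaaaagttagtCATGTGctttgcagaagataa
CATGTG was in 7.96% of all promoters and in 7 of 12 promoters (58.3%) of the melanocyte list.

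Schwann and nerve markers, several of which neural crest tumors such as melanoma also express, rose for 6 of 9, against 22% of all tested genes. A call in each host was reached by 4, against 8.93% of all tested genes, and the median was 1.02 (lean hosts 1.33, obese hosts 0.73). S100b, a calcium-binding protein of Schwann and pigment cells, rose from 41.1 ± 6.65 to 169.6 ± 18.6 CPM in lean and from 91.6 ± 13 to 192 ± 52.3 CPM in obese hosts (SD, n = 4). Gfap, an intermediate filament, changed by 1.13 (adjusted p = 3.16e-05). The summed CPM of the 9 genes was 178 to 247 and 616 to 746 in lean pre-therapy and ETS tumors and 522 to 569 and 675 to 1156 in obese ones.

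**Figure D3:**
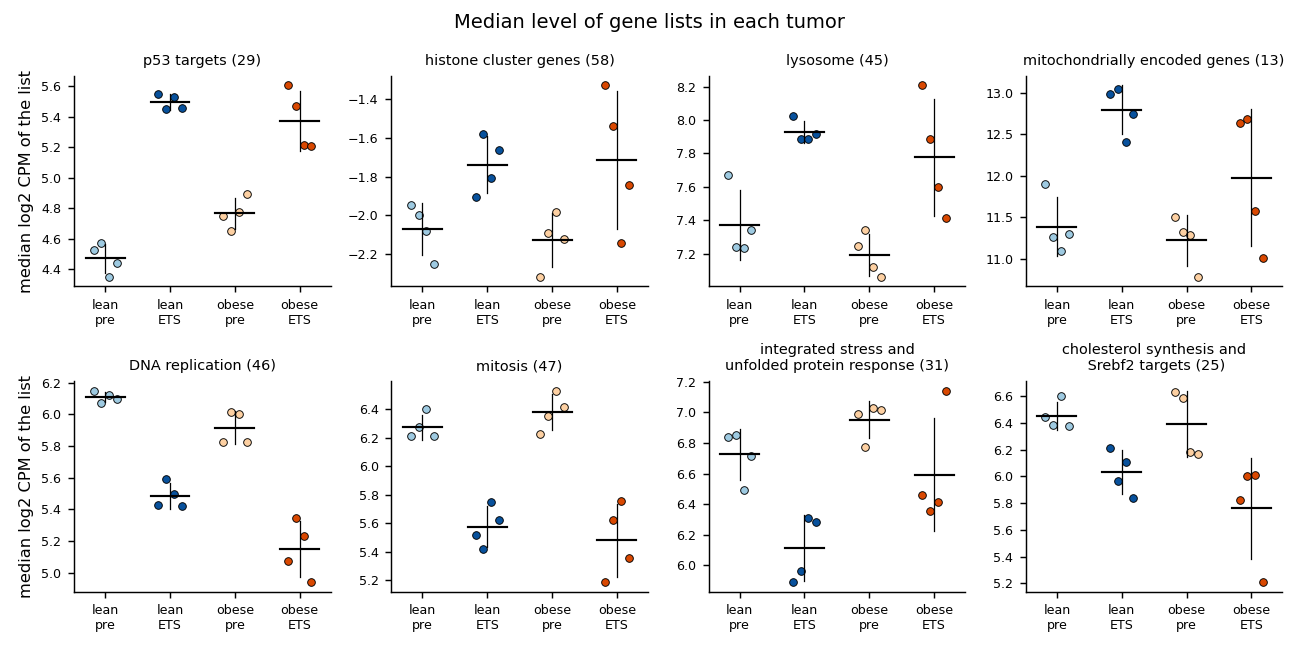
Median log2 CPM of the tested genes of 8 lists in each tumor, by group, with 1 point per tumor, a line at the mean of 4 and a bar of 1 SD. The p53 targets stand higher and the mitosis and DNA replication lists lower in every ETS tumor of either host, and obese ETS tumor 4 lies nearest to the pre-therapy tumors for the mitochondrially encoded genes.

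Transcripts of red blood cells were nearly lost after ETS in both hosts, outside the tested genes because each had a zero count in 2 to 8 tumors. The summed CPM of 6 genes, the globin genes Hba-a1, Hba-a2, Hbb-bs and Hbb-bt with Alas2 and Slc4a1, was 367, 191, 481 and 108 in lean pre-therapy tumors and 0.107, 0.0599, 0 and 0.158 in lean ETS tumors. In obese hosts it was 959, 860.1, 1439 and 13066 before therapy and 1.34, 3.23, 38.4 and 15.2 after ETS. The groups did not overlap within either host, and obese pre-therapy tumor 4 stood far above the rest. When genes with zero counts were kept, 28754 genes were tested and all 6 were called lower on average (edgeR, adjusted p from 5.92e-06 to 0.00110), 5 of them in each host. Reads of the paired globin genes may be shared, so their single values are uncertain. The source of these transcripts was not tested.

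**Figure D4:**
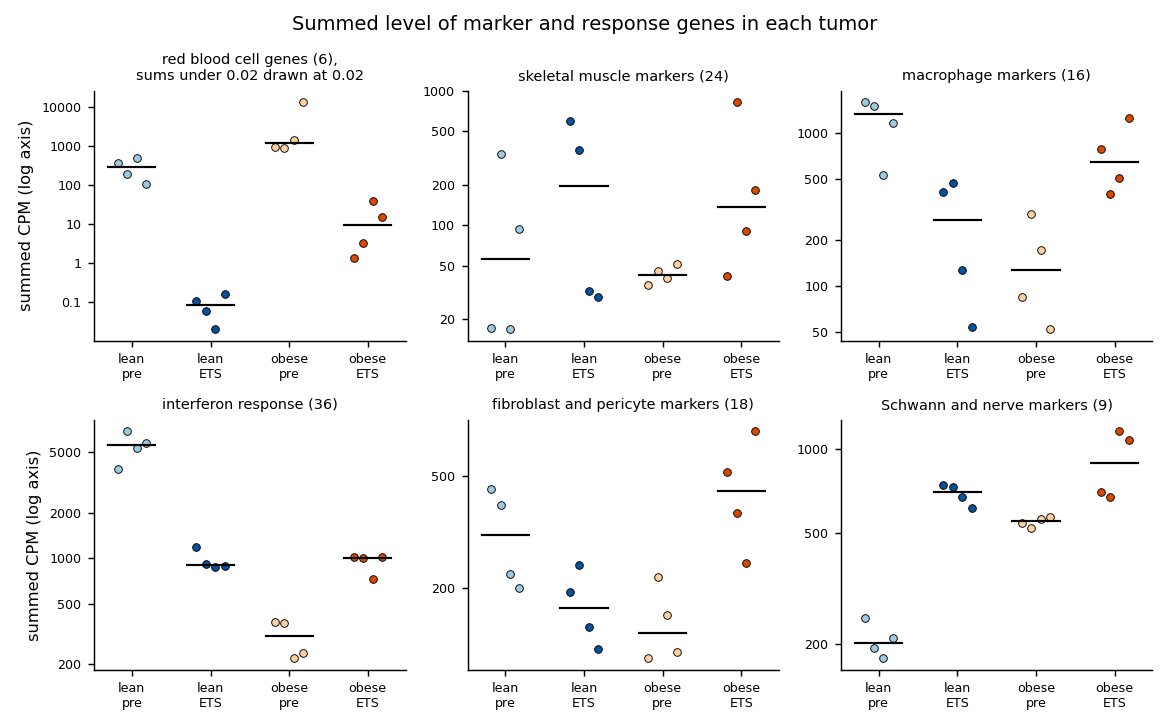
Summed CPM on a log axis of 6 lists of marker and response genes in each tumor by group, with 1 point per tumor and a line at the median; red blood cell sums under 0.02 are drawn at 0.02. Red blood cell genes are lower in every ETS tumor than in any pre-therapy tumor of the same host, while macrophage markers lie lower in lean ETS and higher in obese ETS tumors and muscle markers are high in single tumors of several groups.

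Several lists of immune and other cell type markers held no members of the shared response. Antigen presentation genes (17 tested), macrophage markers (13) and adipocyte markers (5) had none, and the hosts differed for 17, 12 and 3 of them. Neutrophil, mast cell and keratinocyte markers, with 1, 1 and 4 genes tested, also had none. Of 35 interferon response genes 1 rose, 1 fell, 3 were called with opposite signs (Ifit1, Irf1 and Rsad2), the hosts differed for all 35, and the median was 0.23 (-1.70 in lean and 2.44 in obese hosts), and -0.33 on log2(TPM + 1) and -0.25 on TPM without mitochondrial genes. The gene that fell was Cxcl10, a chemokine that attracts T cells, at -3.48 in lean and -0.66 in obese hosts and -2.07 (adjusted p = 0.00454) on average, and the gene that rose was Ddx58, the RNA sensor RIG-I, at 0.01 in lean and 2.27 in obese hosts. The call of Ddx58 was lost without obese pre-therapy tumor 2, 3 or 4, with an average log2 value of 0.90 (adjusted p = 0.0517) without tumor 3. Of 22 T and NK cell markers only Lck, a kinase of T cell receptor signaling, had no zero, and it fell from 11.1 ± 1.25 to 1.81 ± 0.387 CPM in lean and from 3.02 ± 0.444 to 1.9 ± 0.732 CPM in obese hosts (SD, n = 4). The summed CPM of the T and NK cell list was 75.5 to 127 in lean pre-therapy tumors and 2.13 to 6.29 in lean ETS tumors, but 3.76 to 5.68 and 2.84 to 11.8 in obese ones. Cd79a, a part of the B cell receptor and the 1 tested gene of 9 B and plasma cell markers, rose by 1.17 (adjusted p = 0.000442) at levels of at most 2.56 CPM. Over that whole list the summed CPM overlapped in lean hosts, at 2.23 to 6.69 before therapy and 2.87 to 5.27 after ETS. In obese hosts it was 1.59 to 2.33 and 2.72 to 4.26. Of 5 tested dendritic cell markers 2 fell (Batf3 and Zbtb46), and Zbtb46, a factor of classical dendritic cells that lies among several overlapping genes, changed by -0.59 (adjusted p = 0.00601).

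Vessel and connective tissue markers went opposite ways in the hosts by their medians, which were -0.22 in lean and 1.12 in obese hosts for 19 tested endothelial markers. They were -1.07 in lean and 1.43 in obese hosts for 16 fibroblast and pericyte markers and -0.73 in lean and 2.11 in obese hosts for 29 collagens and matrix genes. The hosts differed for 12, 10 and 21 of them. The endothelial calls were 0 higher and 0 lower on log2(TPM + 1) and 1 and 0 on TPM without mitochondrial genes. The fibroblast and pericyte calls were 1 higher and 0 lower on log2(TPM + 1) and 2 and 0 on TPM without mitochondrial genes. Of the endothelial markers 3 rose, against 22% of all tested genes and none with a call in each host, Eng, a receptor of the TGF-beta family, by 0.61 (adjusted p = 0.00420), Vwf, von Willebrand factor, by 0.48 (adjusted p = 0.0246) and Mmrn2, a vessel matrix protein, by 0.86 (adjusted p = 0.0160). Mmrn2 read 0.03 in lean and 1.69 in obese hosts, and no change in lean hosts was called. Of the 16 fibroblast and pericyte markers 6 rose, above the 22% of all tested genes, and none had a call in each host. Among the 6, the receptor Notch3 rose by 0.86 (adjusted p = 0.00502, edgeR), the proteoglycan Cspg4 by 0.73 (adjusted p = 0.00547, edgeR) and the channel Kcnj8 by 0.77 (adjusted p = 0.0327, edgeR). Kcnj8 stood at 0.43 (adjusted p = 0.0721) and Vwf at 0.42 (adjusted p = 0.0558) without obese ETS tumor 1, and Kcnj8 lost its call when 1 of 7 tumors was left out in turn. Of the 29 collagens and matrix genes 6 rose, near the 22% of all tested genes, 3 with a call in each host. Sparc, a matrix glycoprotein, changed by 0.94 (adjusted p = 0.000664, edgeR) and Timp2, an inhibitor of matrix proteases, by 0.81 (adjusted p = 0.000126, edgeR). Of 11 tested skeletal muscle markers 2 rose, and both followed single tumors. Des, desmin, was highest in obese ETS tumor 2 (66.1 CPM) and lean ETS tumors 1 and 2 (62.3 and 50.7 CPM), and Actn3, of fast muscle fibers, reached 17.2, 17.5 and 14.9 CPM in the same tumors and at most 0.414 CPM in the other ETS tumors. Without obese ETS tumor 2 Actn3 stood at 1.51 (adjusted p = 0.175) and Des at 1.56 (adjusted p = 0.00769). Actn3 lost its call when 1 of 10 tumors was left out in turn. It was also at 6.13 and 2.03 CPM in lean pre-therapy tumors 2 and 4.

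**Figure D5:**
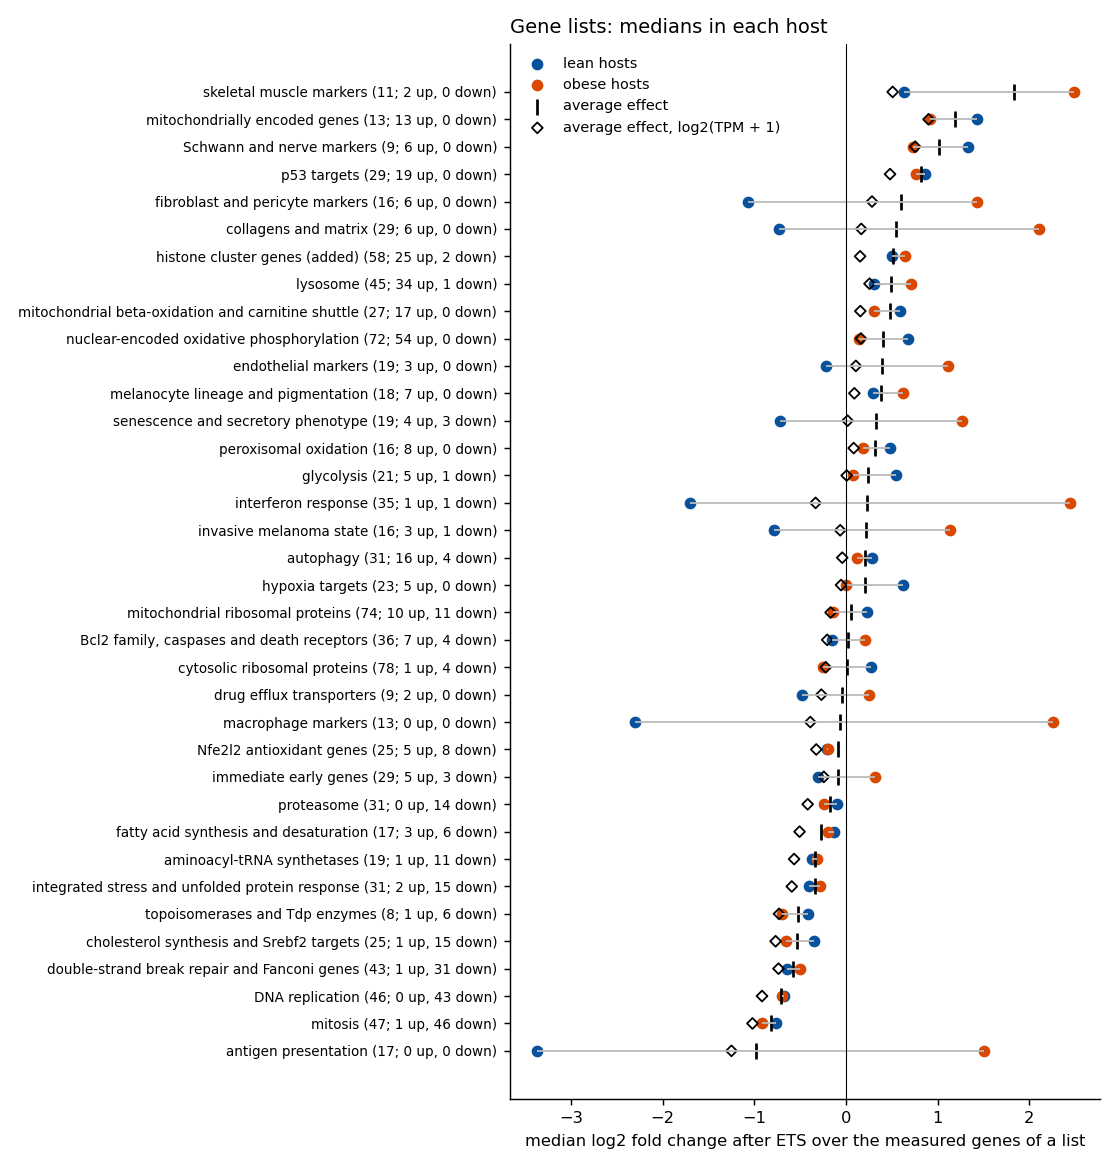
Median log2 fold change after ETS of each gene list with at least 8 tested genes, in lean hosts (blue), in obese hosts (orange), on average (black tick) and on log2(TPM + 1) (diamond). Mitosis, DNA replication and cholesterol synthesis lie below 0 and p53 targets and mitochondrially encoded genes above 0 in both hosts, whereas interferon response and antigen presentation lie far apart between hosts.

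A further 84 called genes had opposite signs in the hosts and are not members, 36 higher and 48 lower in lean hosts, and the smaller of their changes had a median size of 0.04 and a largest size of 0.62 on the log2 scale. At the threshold, the last member was Crnde, a long noncoding RNA gene, with a log2 change of -0.42 and an adjusted p of 0.0499566 (edgeR), and the first gene outside was Zdhhc5, a palmitoyltransferase gene, with 0.22 and 0.050009.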

How the data were processed

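Per the labels and the study's methods, the authors prepared stranded poly(A) libraries, demultiplexed reads with bcl2fastq 2.20.0, trimmed them with Trimmomatic, aligned them to mm10 with HISAT2 2.1.0 and quantified genes with StringTie 2.1.3b. The deposited table holds raw read counts per gene, which were tested, and TPM made by the authors, which served an alternative; 16 further deposited columns hold FPKM computed by the authors and were not used. Strand use in counting is not given in the sources used here. The 16 tumors fell into 4 groups of 4 by the labels, and since nothing ties each tumor to its own mouse in the table, p-values measure the spread between these tumors.

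Genes with a zero count in any tumor were left out, as in the study, leaving 16209 of 45777. Counts were scaled by the trimmed mean of M-values and tested with edgeR 4.0.16 (R 4.3.3) by the quasi-likelihood F test on host plus treatment; changes per host and their difference came from a fit of 4 group means. P-values were adjusted by Benjamini-Hochberg over all tested genes at 0.05. No 2 tumors of a group held the same values. The tests were checked on simulated data. Named genes were the 10 largest rises and falls by the smaller of the lean and obese changes, among genes of at least 1 CPM called in each host with no overlap, then up to 3 members of each gene list, and 8 genes taken whatever their result (Cdkn1a, Mdm2, Top2a, Top2b, Mki67, Mitf, Ppara and Casp2). The members and the gene lists were chosen with earlier results of these data known. Lists are described by counts and medians, with no set test. Gene spans and the 250 bases before each gene start come from RefSeq GRCm38.p6, to which 16172 tested gene IDs matched. Alternatives were other scalings and filters, DESeq2 1.42.0, limma-voom and limma 3.58.1 on log2(TPM + 1), a scale that understates changes of low genes, an exact test, a replicate block and each tumor left out. Results of some named genes are not reported here.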

Additional observations from a re-analysis of the deposited data

Results flagged for a closer look

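Among the 456 groups of 4 tumors checked for the 114 named genes, 23 held a tumor farther from the other 3 than Dixon's 95% limit allows, and chance gives about 5% of groups, or 1 in 20. Of the 23, 6 were in lean pre-therapy tumor 1. In lean pre-therapy tumor 4 Wfdc3 read 0.763 CPM (others 0.332 to 0.386). In obese ETS tumor 2 Hspb7 read 14.9 CPM (others 7.81 to 8.81), Actn3 read 17.2 CPM (others 0.345 to 0.414) and Des read 66.1 CPM (others 14.7 to 16.9). In lean ETS tumor 2 Tdp1 read 32.9 CPM (others 25.9 to 27.0) and Rplp1 read 1829 CPM (others 1339 to 1409). In obese pre-therapy tumor 1 Polq read 20.01 CPM (others 25.3 to 26.2). In lean pre-therapy tumor 1 Pole2 read 27.9 CPM (others 26.0 to 26.2), Gabarap read 240.5 CPM (others 156 to 168) and Ndufa13 read 119 CPM (others 91.1 to 94.6). In the same tumor Elovl6 read 44.3 CPM (others 54.6 to 56.0), Cd79a read 1.15 CPM (others 0.523 to 0.572) and Mmrn2 read 10.1 CPM (others 12.4 to 12.6). In lean ETS tumor 3 Mrpl18 read 48.8 CPM (others 45.8 to 46.2) and Abcc2 read 2.43 CPM (others 1.84 to 1.93). In obese ETS tumor 4 Cars read 83.6 CPM (others 49.5 to 52.4) and Chac1 read 33.1 CPM (others 10.6 to 12.2). In obese ETS tumor 1 Psma5 read 82.5 CPM (others 88.0 to 88.8) and Kcnj8 read 15.05 CPM (others 3.64 to 4.92). In obese pre-therapy tumor 4 ND1 read 2901 CPM (others 4131 to 4231). In obese pre-therapy tumor 3 Hk1 read 493 CPM (others 595 to 615). In obese pre-therapy tumor 2 Abcc2 read 1.46 CPM (others 0.301 to 0.371). In lean pre-therapy tumor 3 Mitf read 665 CPM (others 484 to 494).

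The ETS effect of 9 named genes differed between hosts by the edgeR test of the difference itself, given here as the lean minus the obese log2 change. Phlda3 differed by 1.49 (3.07 in lean and 1.58 in obese hosts, adjusted p = 0.00197). Cdkn1a differed by 2.17 (3.44 in lean and 1.27 in obese hosts, adjusted p = 0.000185). Ctsf differed by 1.19 (3.09 in lean and 1.90 in obese hosts, adjusted p = 0.0371). Rplp1 differed by 0.66 (0.77 in lean and 0.11 in obese hosts, adjusted p = 0.0309). Cxcl10 differed by -2.82 (-3.48 in lean and -0.66 in obese hosts, adjusted p = 0.00597). Ddx58 differed by -2.27 (0.01 in lean and 2.27 in obese hosts, adjusted p = 0.0039). Lck differed by -1.94 (-2.61 in lean and -0.67 in obese hosts, adjusted p = 0.00135). Mmrn2 differed by -1.67 (0.03 in lean and 1.69 in obese hosts, adjusted p = 0.00164). S100b differed by 0.98 (2.05 in lean and 1.07 in obese hosts, adjusted p = 0.0158).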

How the results depend on the processing

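Counts of members held within 1.5 times under each alternative run except log2(TPM + 1). There limma called 1803 genes higher and 6036 lower, and 723 higher and 2764 lower with a call in each host; 1798 of the 3568 genes that rose (50.4%) and 3706 of the 3729 that fell (99.4%) were called again and 1 was called the other way. With the mitochondrially encoded genes taken out of TPM, an alternative chosen after seeing the data, the counts were 2777 and 4364. Genes called with opposite signs, 84 by the main test, numbered 29 without the filter on zero counts, 172 with DESeq2, 167 with limma-voom, 129 on log2(TPM + 1), 592 with the average contrast of the group means, 4 with the replicate block and 167 with the exact test. Leaving out each tumor in turn gave 3255 to 3679 genes higher, 3344 to 3989 lower, 1136 to 1675 higher and 1295 to 1757 lower in each host, and 47 to 103 with opposite signs, the last lowest without lean ETS tumor 4 and also more than 1.5 times lower without lean pre-therapy tumors 2, 3 and 4 (54 each) and lean ETS tumor 1 (55). In the other counts the lowest value came without obese ETS tumor 1 and the highest without obese ETS tumor 4. With the replicate number as a block there were 3455 genes higher and 3702 lower; same-numbered tumors had correlations of -0.03 to 0.45, and not every tumor matched its own number best, so the numbers were not taken as pairs. No named gene changed direction. Rpl21, Rpl4, Ddx58, Kcnj8, Vwf and Actn3 lost their call without single tumors, Mitf gained one without lean ETS tumor 3 or obese pre-therapy tumor 4, and Ppara without lean or obese ETS tumor 4. On log2(TPM + 1) 12 named genes lost their call. The causes were not tested. Genes with a zero count in any tumor were not tested, so genes lost to zero after ETS are outside the members, and a gene with few counts has a larger relative counting error.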
